A study of Mus musculus with 18 samples.

Results

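The 6 libraries described here hold the nascent RNA of *Tet2*-KO mouse embryonic stem (mES) cells after 20 min (3 libraries) and 40 min (3 libraries) of labelling with 5-ethynyl uridine (EU), out of 18 libraries in the series. They were taken by their labels, as the *Tet2* knockout samples with a time point of 20 or 40 min. The cells carried the knockout in both groups, were grown without feeders before labelling in medium with serum, LIF and the inhibitors of the 2i mixture, and received 1 mM EU, and the groups differed in the labelling time. WT mES cells with the same 2 labelling times (6 libraries) are used below for comparison. The methods name 1 *Tet2*-KO line and 1 WT line, so the replicates are dishes of a line, and p-values measure the spread between such dishes. The question was which genes gained or lost a share of the labelled RNA between the 2 labelling times, and which rose more or less than the total per spike-in read.

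EU is a uridine analogue that cells take up and build into RNA while RNA polymerases transcribe, and its alkyne group lets the labelled RNA be coupled to biotin and pulled down. A labelled pool after a short pulse is mostly pre-mRNA still on or near the gene. As the pulse lengthens, spliced and processed RNA is added, labelled RNA of unstable transcripts begins to decay, and polymerases that started during the pulse reach further into long genes. TET2, the deleted enzyme, oxidizes 5-methylcytosine in DNA and RNA.

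The 6 libraries held between 17931614 and 20221299 reads on genes, given below as CPM, the usual per-library scale of read counts, with TMM-normalized gene totals as library sizes. Of the 184 protein-coding genes that lie within a gene of the same strand without a shared exon, 180 held 0 reads in all 6, against 85 of 431 within a gene of the opposite strand and 2177 of 11721 that overlap no gene, the pattern of counts taken by strand over whole genes, introns included, with reads shared by 2 genes dropped. *Sox2*, which lies within *Sox2ot* on the same strand, was at 0 in all 18 libraries. The other 24 of 25 pluripotency markers held reads. Their summed level, in CPM of gene reads without TMM, was 3886 to 3949.6 CPM at 20 min and 3963 to 3984 CPM at 40 min. Reads on *Tet2* (chr3:133463679-133545139, mm10) were not lost under the knockout label, at 584, 587 and 597 CPM at 20 min and 662, 667 and 659 CPM at 40 min, so the count of all reads within the locus cannot tell a partial deletion from an intact gene. Its share rose, by 0.17 ± 0.021 (SE) on the log2 scale (adjusted p = 1.9e-07 by edgeR), beside 0.17 in WT.

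The ERCC mix is a set of synthetic RNAs added to each sample as a yardstick. The labelled RNA of all genes per ERCC read was higher at 40 min than at 20 min. It was 192, 215 and 211 gene reads per ERCC read in the 20 min libraries (206 ± 12.7, SD, n = 3) and 429, 366 and 397 in the 40 min libraries (397 ± 31.6, SD, n = 3). Every 40 min library lay above every 20 min library, and the means stood at a ratio of 1.93 (p = 0.1 in a two-sided exact permutation test, the lowest value possible with 3 libraries against 3). In WT the ratio was 1.68, from 147 ± 8.86 to 247 ± 10.2 (SD, n = 3 each), and the difference between the ratios was not tested. ERCC RNA was added in proportion to total RNA, so these levels are relative to total RNA, with no count of cells. The ERCC reads behind them fell from 89633 to 98571 per library at 20 min to 44162 to 55247 at 40 min.

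**Figure D1:**
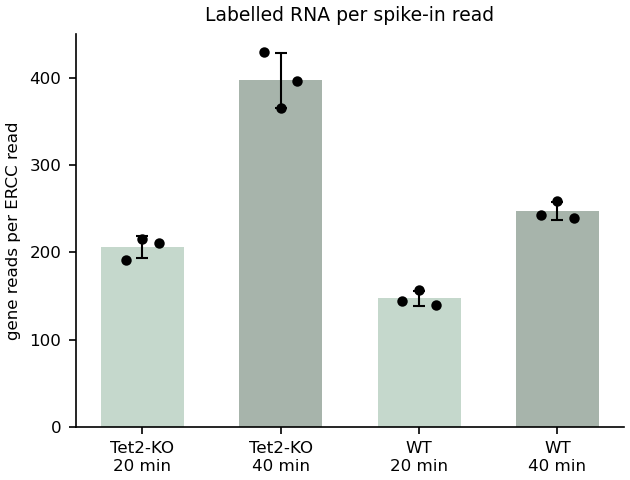
Gene reads per ERCC read (vertical axis) in the 20 and 40 min libraries of *Tet2*-KO and WT mES cells; points are libraries, bars the means and error bars the SD (n = 3). In each genotype the 3 libraries at 40 min lie above the 3 at 20 min, with means of 397 against 206 in *Tet2*-KO and 247 against 147 in WT.

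The rise was spread over nearly all genes. Of the 19910 genes with enough reads to test, 15237 were higher at 40 than at 20 min per ERCC read (76.5% of the genes tested) and 11 were lower (0.0552%, and 76.6% either way), by edgeR's quasi-likelihood test with a Benjamini-Hochberg adjusted p under 0.05. The median log2 change per ERCC read was 0.89 (quartiles 0.70 and 1.03), 96.8% of genes lay above 0, and 30.4% rose by more than a log2 of 1, the change of a gene whose level followed the labelling time in proportion.

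Among the 5841 genes with a mean log2 CPM above 5, those whose level per ERCC read rose most were *Gm30228*, *Mycn*, *Gm28039*, *Gm11427* and *A230004M16Rik*, with log2 changes of 1.54, 1.51, 1.51, 1.46 and 1.46. *Mycn*, a MYC-family transcription factor with a short-lived mRNA, stood at 8.77, 10.5 and 10.2 reads per 1000 ERCC reads at 20 min and 31, 25.6 and 27.4 at 40 min (log2 change 1.51 ± 0.10, SE, adjusted p = 1.9e-37 by edgeR). All 3 libraries at 40 min lay above those at 20 min. At the other end were *Klhl41*, *4930543E12Rik*, *Srgap3*, *Gtf2ird2* and *Tns1*, with log2 changes of 0.089, 0.091, 0.22, 0.28 and 0.33. *Tns1*, which codes for the focal adhesion protein tensin 1, stood at 36.8, 41.3 and 40.7 reads per 1000 ERCC reads at 20 min and 55.2, 44.3 and 50.3 at 40 min (log2 change 0.33 ± 0.09, SE, adjusted p = 0.00039 by edgeR), so its 40 min libraries were above those of 20 min, but by less than the total (adjusted p = 2e-14 for the difference from the total). *Klhl41*, a kelch protein best known from muscle, stood at 10.6, 9.59 and 11.5 reads per 1000 ERCC reads at 20 min and 12.1, 9.85 and 11.9 at 40 min, a difference within the error (log2 change 0.089 ± 0.10, SE, adjusted p = 0.428 by edgeR).

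The 11 genes called lower per ERCC read were named because they are few. They were the protein-coding genes *Tspo2*, *1700012P22Rik*, *Pappa*, *Fcgr4* and *Col12a1*, the lincRNA *4921509O07Rik*, the miRNA genes *Gm44492* and *Mir1983*, the snRNA gene *Gm23287* and the pseudogenes *Gm47385* and *Gm47506*. *Fcgr4*, an Fc gamma receptor gene, held 175, 114 and 147 reads at 20 min and 38, 51 and 55 at 40 min (log2 change -0.64 ± 0.19, SE, adjusted p = 0.00166 by edgeR). *Pappa*, which codes for a metalloprotease that cleaves IGF-binding proteins, held 95, 85 and 95 reads at 20 min and 24, 28 and 34 at 40 min (log2 change -0.71 ± 0.25, SE, adjusted p = 0.00693 by edgeR). In both, every 40 min library held fewer reads than every 20 min library, and fewer ERCC reads as well. *Tspo2* held 6, 4 and 0 reads at 20 min and 0, 0 and 0 at 40 min, too few for a fold. Which genes were called lower here depended on single libraries, with 5 such genes without 20 min replicate 1 and 18 without 20 min replicate 2.

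To ask which genes rose more or less than the bulk, the change in a gene's share of gene reads was taken after scaling by the trimmed mean of M values (TMM), which sets the middle of the genes to no change. Of the 19910 genes, 1827 gained share (9.18%) and 1088 lost share (5.46%, and 14.6% either way), and 16995 did not pass the test (edgeR's quasi-likelihood test, Benjamini-Hochberg adjusted p under 0.05). Most changes were small. The median size over the called genes was 0.24 on the log2 scale, and 363 of them passed 1.5-fold, 89 upwards and 274 downwards. Measured against the total per ERCC read instead, all values shift by -0.052 on the log2 scale, and 1099 genes rose more than the total (5.52%) and 1781 less (8.95%). All 1088 genes that lost share were also called below the total, 1099 of those that gained it were called above the total, and 0 genes were called in opposite directions. With upper-quartile scaling 1294 genes gained share and 1495 lost it, so the balance of gains and losses depended on the scaling. In 6842 genes (34.4%) the CPM values at 20 and 40 min did not overlap, so a lack of overlap, given for single genes below, is common among all genes tested.

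**Figure D2:**
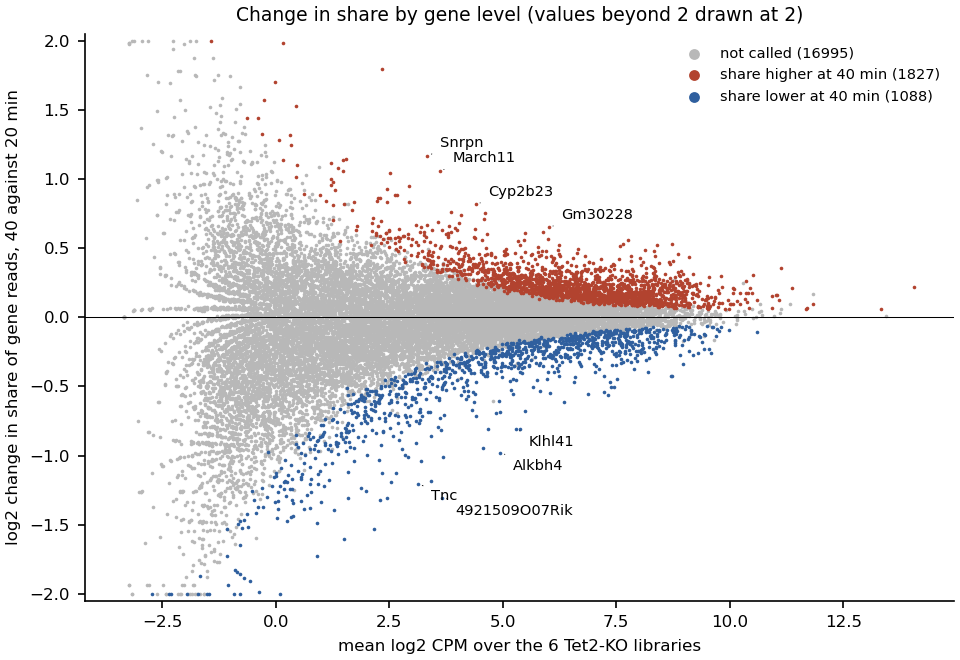
Each point is 1 of the 19910 genes tested in *Tet2*-KO mES cells, by its mean log2 CPM over the 6 libraries (horizontal) and its log2 change in share of gene reads at 40 against 20 min (vertical, values beyond 2 drawn at 2). Genes called higher (1827, red) sit mostly at high levels and close to 0, and genes called lower (1088, blue) reach further from 0.

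Of the 2344 protein-coding genes that were called, had a mean log2 CPM above 3 and did not overlap between the groups, the 10 with the largest gain in share were *Snrpn*, *March11*, *Cyp2b23*, *Soga3*, *Gabrg3*, *Tmtc2*, *Gad1*, *Arrdc4*, *Tmeff2* and *Mgat2*, with log2 changes from 0.65 to 1.17. *Snrpn* (chr7:59982495-60140219), an imprinted gene for a spliceosomal Sm protein, had 6.55, 6.60 and 6.89 CPM at 20 min and 14, 15.1 and 16 CPM at 40 min. Its lowest 40 min library was above its highest 20 min library by more than the spread within either group (log2 change 1.17 ± 0.13, SE, adjusted p = 2.6e-08 by edgeR). *March11*, which codes for a membrane-bound E3 ubiquitin ligase, had 8.08, 8.22 and 8.90 CPM at 20 min and 16, 18.3 and 18.3 CPM at 40 min (log2 change 1.06 ± 0.13, SE, adjusted p = 3.7e-07 by edgeR). *Cyp2b23*, a cytochrome P450 gene, had 15, 17.6 and 15.2 CPM at 20 min and 26.1, 28 and 30.3 CPM at 40 min (log2 change 0.82 ± 0.10, SE, adjusted p = 3.1e-07 by edgeR). The groups lay apart in all 3 genes.

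Of the other genes in this set, 2 act in signalling by the neurotransmitter GABA. *Gabrg3*, a subunit of the GABA-A receptor with a span of 671 kb, had 17, 19.3 and 19.6 CPM at 20 min and 30.1, 33 and 28.4 CPM at 40 min (log2 change 0.71 ± 0.094, SE). *Gad1*, the enzyme that makes GABA from glutamate, had 6.60, 7.18 and 6.12 CPM at 20 min and 10.8, 9.54 and 11.3 CPM at 40 min (0.67 ± 0.15, SE). In both the 40 min libraries were all above those of 20 min. *Tmtc2*, an O-mannosyltransferase of the endoplasmic reticulum, rose by 0.68, *Arrdc4*, an alpha-arrestin, by 0.66, *Tmeff2*, a membrane protein with follistatin-like domains, by 0.65, *Soga3* by 0.76 and the intronless *Mgat2*, an enzyme of N-glycan synthesis, by 0.65. *Snrpn* and *Gabrg3* share a stretch of chromosome 7 with *Ube3a* and *Snhg14*, which were looked at after these values were seen. *Ube3a*, an E3 ubiquitin ligase gene, rose by 0.23 ± 0.036 and *Snhg14*, the long host transcript of snoRNAs that runs antisense to *Ube3a*, by 0.41 ± 0.10 (SE, adjusted p of 1.6e-05 and 0.0052 by edgeR). Leaving out 1 library ended the edgeR call of *Snhg14* (20 min replicate 3, adjusted p = 0.0532).

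The 10 protein-coding genes with the largest loss of share by the same rule were *Tnc*, *Olfr374*, *Oacyl*, *Alkbh4*, *Gna14*, *Btbd16*, *Klhl41*, *Phf7*, *Inhba* and *Slc26a11*, with log2 changes from -1.20 to -0.75. *Tnc*, the extracellular matrix protein tenascin C, had 13.8, 14.4 and 11.7 CPM at 20 min and 6.25, 5.38 and 5.66 CPM at 40 min (log2 change -1.20 ± 0.15, SE, adjusted p = 1.5e-07 by edgeR), so each 40 min library held less than the lowest 20 min library. *Inhba*, the activin beta A subunit, had 12, 10.8 and 11.7 CPM at 20 min and 6.64, 6.77 and 6.94 CPM at 40 min (log2 change -0.77 ± 0.13, SE, adjusted p = 7.2e-05 by edgeR). *Alkbh4*, a demethylase of the AlkB family, had 51.8, 33.6 and 45.5 CPM at 20 min and 19.7, 22.4 and 24.3 CPM at 40 min. *Gna14*, a G protein alpha subunit of the Gq family, had 38.7, 25.1 and 35.6 CPM at 20 min and 15, 16.6 and 20.1 CPM at 40 min. In *Alkbh4* and *Gna14* the 20 min libraries spread more widely, with replicate 2 the lowest of the 3, and the 40 min libraries still lay below all of them (log2 change -0.98 ± 0.20 and -0.94 ± 0.15, SE).

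The libraries also differed in the share of reads that fell outside all genes, which was 15.8%, 15.1% and 15.6% at 20 min and 14.4%, 14.5% and 14.8% at 40 min. The groups did not overlap (p = 0.1, again the lowest value of the exact permutation test). *Alkbh4*, *Gna14*, *Olfr374*, *Phf7* and *Inhba* put the 6 libraries in the same order as this share, from the highest to the lowest. Because the share itself does not overlap between the groups, a gene in its order must be lower in every 40 min library, which a gene that gained share cannot meet. Of all 19910 genes tested, 149 had this order, 81 of them among the 1088 that lost share. In the 6 WT libraries, which were not used to pick these genes, the share outside genes was 15.9% to 16.9% at 20 min and 13.2% to 13.9% at 40 min, and *Alkbh4*, *Gna14* and *Phf7* again put the libraries in its order, as did the noncoding *4921509O07Rik* and *Gm26785* in both genotypes. There too the groups of this share do not overlap, so the order again requires a lower value at 40 min. Of all genes tested 243 had the order in WT and 21 in both genotypes, and of the 1088 that lost share in *Tet2*-KO, 57 and 16. *Alkbh4* had 39.4, 31.3 and 57.1 CPM at 20 min and 28.3, 25 and 20.9 CPM at 40 min in WT. The part of this share in the losses was not tested.

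**Figure D3:**
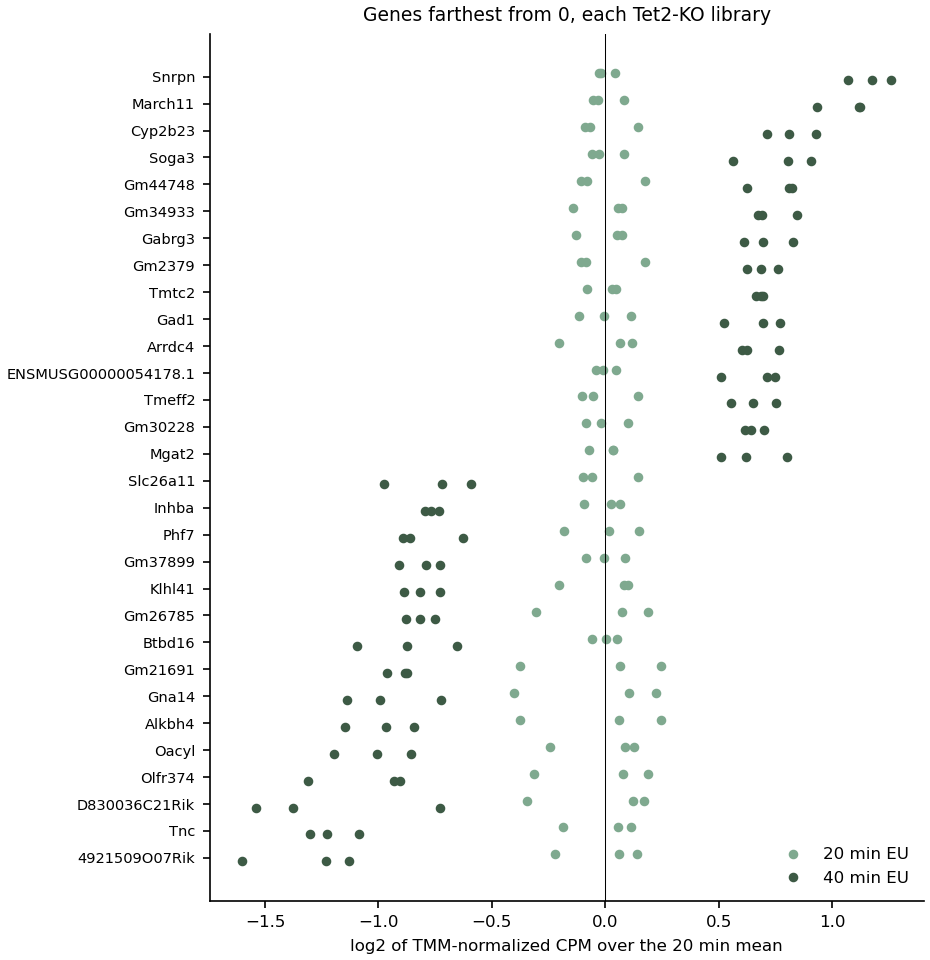
TMM-normalized CPM of each *Tet2*-KO library over the mean of the 20 min libraries (log2, horizontal) for the 10 protein-coding and 5 other genes with the largest gain and the same numbers with the largest loss of share; light points are 20 min and dark points 40 min libraries. By the rule that chose the genes no light point reaches the dark points of its gene, and the 20 min libraries spread most widely for *Gna14*, *Alkbh4*, *Gm21691* and *Gm26785*.

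Noncoding and pseudogene transcripts gave the ends of the range as well. The 5 with the largest gain in share were *Gm44748*, *Gm34933*, *Gm2379*, a gene listed only as ENSMUSG00000054178.1 and *Gm30228*, at 0.65 to 0.76 on the log2 scale. *Gm30228*, a lincRNA, had 48.6, 51 and 55.2 CPM at 20 min and 78.9, 83.9 and 80.4 CPM at 40 min (log2 change 0.65 ± 0.073, SE, adjusted p = 3.5e-08 by edgeR) and at most 0.602 CPM in the WT libraries. The 5 with the largest loss were the lincRNAs *4921509O07Rik*, *D830036C21Rik* and *Gm26785*, the antisense transcript *Gm21691* and *Gm37899*, whose kind is still to be tested by experiment, at -1.31 to -0.81. *4921509O07Rik* had 22, 17.1 and 20.8 CPM at 20 min and 6.58, 8.51 and 9.13 CPM at 40 min (log2 change -1.31 ± 0.17, SE, adjusted p = 5.3e-07 by edgeR). The 3 libraries at 40 min held less than 17.1 CPM, the lowest value at 20 min.

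By biotype, 1696 protein-coding genes were called higher (11.2%) and 910 lower (6.00%) of 15158, beside 9.18% and 5.46% of all genes tested, where the balance depended on the scaling (median log2 change in share 0.0096, beside -0.0028 over all genes tested). Among lincRNAs 57 rose and 58 fell of 1612 (median -0.10), among antisense transcripts 14 rose and 47 fell of 1182 (median -0.11), among processed transcripts 15 rose and 29 fell of 426 (median -0.075) and among bidirectional promoter lncRNAs 0 rose and 6 fell of 101 (median -0.21). Their levels were far lower, with a median log2 CPM of 0.29 for lincRNAs against 3.96 for protein-coding genes. As shares of all gene reads, protein-coding genes took 93.3% ± 0.0159 at 20 min and 93.1% ± 0.0644 at 40 min, and bidirectional promoter lncRNAs 0.0344% ± 0.000729 and 0.0302% ± 0.000261 (SD, n = 3). The groups did not overlap for either, at p = 0.1, the smallest value of the two-sided exact permutation test with 3 libraries against 3 (adjusted p = 0.156 over 14 biotypes).

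Of the 101 tested genes annotated as miRNA, snRNA, snoRNA, scaRNA, 5S or other rRNA of the nuclear genome, or miscellaneous RNA, 0 rose (0%) and 13 fell (12.9%), beside 9.18% and 5.46% of all genes tested, with a median log2 change of -0.50 in share and 0.40 per ERCC read, beside -0.0028 and 0.89 over all genes tested. They were grouped after their values were seen. Among those called were *Rnu11*, the U11 snRNA of the minor spliceosome, with 33, 32 and 52 reads at 20 min and 9, 14 and 18 at 40 min (log2 change in share -1.43 ± 0.41, SE), and 2 snoRNAs that act in the processing of ribosomal RNA. *Snord118*, the U8 snoRNA, held 86, 80 and 81 reads at 20 min and 38, 59 and 49 at 40 min (-0.69 ± 0.23, SE). *Snord13*, the U13 snoRNA, held 22, 24 and 42 reads at 20 min and 11, 12 and 9 at 40 min (-1.38 ± 0.43, SE). In all 3 the reads at 40 min lay below those at 20 min in each library. The edgeR calls of *Rnu11* (20 min replicate 3, 40 min replicate 1 or 40 min replicate 2, adjusted p = 0.0508 to 0.0945), *Snord118* (any but 40 min replicate 2, adjusted p = 0.0642 to 0.196) and *Snord13* (any but 20 min replicate 1 or 20 min replicate 2, adjusted p = 0.0678 to 0.186) did not hold when that library was left out. Such genes hold few reads, and 17 of the 101 fell and 1 rose in WT. The median log2 CPM was -0.88 for the miRNA and -0.65 for the snRNA genes. Of the 3969 genes of any kind with a mean log2 CPM under 0, only 6 rose (0.151%) and 38 fell (0.957%), with a median log2 change in share of -0.17. The absence of gains is thus near the share of genes with few reads. The list of 11 short RNAs made mostly by RNA polymerase III gave no call among 6 tested members (edgeR, adjusted p under 0.05, median -0.50). *Rn7sk*, the 7SK RNA that holds P-TEFb inactive, had 185, 193 and 167 CPM at 20 min and 193, 212 and 182 CPM at 40 min, which overlap, and *Bc1* had 46, 23.8 and 33 CPM at 20 min and 20.1, 23.7 and 23.8 CPM at 40 min (adjusted p = 0.0636 by edgeR), which missed the threshold. *Bc1* passed it without 20 min replicate 2 (-0.81, adjusted p = 0.0113 by edgeR). *Terc* and *Rny3* did not pass the test (0.039 and -0.40), on few reads.

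The miRNA genes include the miR-290 cluster on chromosome 7, the leading miRNA cluster of mES cells. Its 3p mature miRNAs are shown because the hairpins measured here encode them, with the seed (bases 2 to 8) in capitals (RefSeq, GRCm38.p6):
mmu-miR-290a-3p: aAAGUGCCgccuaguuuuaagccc
mmu-miR-291a-3p: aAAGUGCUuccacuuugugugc
mmu-miR-291b-3p: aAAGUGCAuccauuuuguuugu
mmu-miR-293-3p: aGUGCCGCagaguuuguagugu
mmu-miR-294-3p: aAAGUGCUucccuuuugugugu
mmu-miR-295-3p: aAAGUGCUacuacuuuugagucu
The seeds of 291a, 294 and 295 are identical, those of 290a and 291b differ from it in the last base, and 293 stands apart. Reads on these hairpin genes can come from the uncut primary transcript, so the genes of the cluster need not be independent of each other. The gene *Mir291a* held 139, 181 and 148 reads at 20 min and 88, 120 and 107 at 40 min and its share fell (log2 change -0.50 ± 0.16, SE, adjusted p = 0.0299 by edgeR). By edgeR, leaving out 1 library ended the call of *Mir291a* (20 min replicate 2 or 40 min replicate 1, adjusted p = 0.176 to 0.178). The other 6 genes, *Mir292* included, did not pass the test, with values from -0.57 to -0.16, so all 7 lay below 0. *Mir290a*, for example, held 96, 69 and 98 reads at 20 min and 51, 71 and 48 at 40 min (-0.57 ± 0.20, SE, adjusted p = 0.0514 by edgeR). *Mir290a* passed it without 20 min replicate 2 or 40 min replicate 2 (-0.72 to -0.71, adjusted p = 0.0197 to 0.0387 by edgeR), and *Mir290a* (-0.60, adjusted p = 0.0391) passed edgeR's test with upper-quartile scaling. Per ERCC read the 7 genes lay between 0.32 and 0.73. Against the total per ERCC read *Mir291a*, *Mir295*, *Mir290a*, *Mir293* and *Mir291b* were called lower (adjusted p = 0.016 to 0.0438 by edgeR). *Mir294* and *Mir292* were not (adjusted p of 0.416 and 0.402 by edgeR). Of all genes tested 8.95% were called lower on that scale.

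Gene span, which sets how far a polymerase must travel, had a correlation near 0 with the change. Across the 15158 protein-coding genes the Spearman correlation of span with the change in share was -0.029, a description across genes that share the libraries and their depth. The median change was 0.035 for genes under 5 kb, -0.0056 for 20 to 50 kb, -0.021 for 100 to 200 kb and 0.022 for genes over 200 kb. Among genes under 5 kb 55 rose and 27 fell of 1431, among those of 50 to 100 kb 441 rose and 168 fell of 2311, among those of 100 to 200 kb 228 rose and 234 fell of 1414 and among those over 200 kb 172 rose and 136 fell of 977. Long genes hold more reads, with a median log2 CPM of 5.66 at 100 to 200 kb against 1.73 under 5 kb, and genes with more reads are called more often in either direction. Per kb of span the order was the opposite, with a median of 1.16 CPM per kb under 5 kb and 0.0581 over 200 kb at 20 min. In WT the medians of the 2 longest classes were -0.093 and -0.09.

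Exon number gave a correlation of -0.00012 among protein-coding genes. The 299 genes with 1 exon had a median change of 0.052 and those with 20 or more of 0.017. Of the genes with 1 exon 15 rose (5.02%) and 1 fell (0.334%), beside 11.2% and 6.00% of all protein-coding genes. They were thus called less often in either direction, at a low median log2 CPM of 1.20. Base content gave somewhat larger values. In the quintile of protein-coding genes with the lowest GC content of the longest transcript (up to 43.8%), 534 rose and 137 fell, with a median of 0.051. In the quintile with the highest (above 55.5%), 174 rose and 152 fell, with a median of -0.0067, with unlike levels (median log2 CPM 4.90 and 2.78). The correlations were -0.11 for GC content, 0.095 for uridine content, the base that EU replaces, and 0.09 for exonic length. All were smaller in size than that of the level itself, 0.22 for mean log2 CPM, where the median ran from -0.18 for genes under a log2 CPM of 0 to 0.069 for genes over 8. On the scale per ERCC read these correlations were -0.11, 0.10, 0.093 and 0.23.

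Genes were also grouped by what is known of the stability of their mRNA. The 57 genes known for short-lived mRNAs, among them immediate early factors and feedback inhibitors, included 51 tested members, of which 14 rose, 2 fell and 35 did not pass the test. The median change in share was 0.19, beside -0.0028 over all genes tested, of which 9.18% rose and 5.46% fell. Per ERCC read the median was 1.08 beside 0.89. *Mycn* had 45.6, 48.9 and 48.1 CPM at 20 min and 75.1, 72.6 and 71.6 CPM at 40 min (log2 change in share 0.62 ± 0.059, SE, adjusted p = 1.2e-09 by edgeR). *Myc*, its better known relative, had 8.93, 9.83 and 9.25 CPM at 20 min and 13.1, 12.2 and 15.1 CPM at 40 min (0.52 ± 0.12, SE). *Spry2*, an inhibitor of receptor tyrosine kinase signalling, had 29.6, 30.9 and 26.3 CPM at 20 min and 37.9, 37.9 and 38.2 CPM at 40 min (0.39 ± 0.068, SE). In the 3 genes the 40 min libraries lay above all 20 min libraries. The kinase gene *Pim1* rose by 0.45, *Spry4* by 0.64, *Klf10* by 0.36, *Socs3*, an inhibitor of STAT3 signalling downstream of LIF, by 0.37, and *Zfp36l1* and *Zfp36l2*, whose proteins bind AU-rich elements, by 0.32 and 0.38. *Plk2*, *Btg2*, *Klf4*, *Mcl1* and *Sgk1* rose by 0.12 to 0.29. Those that fell were *Atf3* at 7.50, 6.08 and 6.74 CPM at 20 min and 3.35, 3.69 and 3.64 CPM at 40 min (-0.93 ± 0.17, SE) and *Egr1* at 2.43, 1.77 and 3.19 CPM at 20 min and 1.21, 1.13 and 0.925 CPM at 40 min (-1.17 ± 0.24, SE), both induced by stress or serum, and their 40 min libraries lay below all 20 min libraries. *Mdm2*, *Klf5* and *Nanog*, with higher levels, did not pass the test, at -0.04, 0.046 and -0.019. Leaving out 1 library ended the edgeR calls of *Socs3* (any but 20 min replicate 2, adjusted p = 0.0658 to 0.293), *Btg2* (any but 20 min replicate 2 or 40 min replicate 2, adjusted p = 0.143 to 0.159) and *Sgk1* (40 min replicate 2, adjusted p = 0.0731). The edgeR calls of *Socs3* (0.34, adjusted p = 0.0722), *Btg2* (0.21, adjusted p = 0.0923) and *Sgk1* (0.083, adjusted p = 0.081) were lost with upper-quartile scaling, and *Mdm2* (-0.075, adjusted p = 0.0361) passed edgeR's test with upper-quartile scaling. Of the list, the numbers called higher and lower were 11 and 3 with upper-quartile scaling and 11 and 3 against the total per ERCC read.

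AU-rich elements in the 3′ UTR mark many unstable mRNAs. The heptamer TATTTAT was searched on the sense strand of the longest annotated 3′ UTR, with matches allowed to overlap, and 28 of 51 tested short-lived genes held it (54.9%), against 29.2% of 14961 protein-coding genes. The first match in 4 genes that gained share is shown with 10 bases on each side and the heptamer in capitals (mm10, sense strand):
Pim1, chr17:29495686-29495712, plus strand, 3′ UTR: agttttaatgTATTTATttatttattt
Spry2, chr14:105892093-105892119, minus strand, 3′ UTR: gtgtaaagaaTATTTATttgaagtttt
Zfp36l2, chr17:84184915-84184941, minus strand, 3′ UTR: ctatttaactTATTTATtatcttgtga
Socs3, chr11:117966140-117966166, minus strand, 3′ UTR: tttgcacataTATTTATatttatactc
Over all protein-coding genes the change in share moved little with the number of heptamers. Of 10585 genes without one 998 rose and 591 fell (median 0.0018), and of 612 genes with 3 or more 103 rose and 42 fell (median 0.05). The Spearman correlation was 0.067, and the genes with more heptamers also held more reads (median log2 CPM 3.68 without and 4.86 with 3 or more). A match to these letters does not show that a site is used.

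More genes for long-lived mRNAs were called higher than lower. Of 47 tested genes for cytoskeleton, glycolysis, translation factors and chaperones, 18 rose, 4 fell and 25 did not pass the test (median 0.088). That is 38.3% higher and 8.51% lower, beside 9.18% and 5.46% of all genes tested. The list had a high median log2 CPM of 7.19. Of all genes with a mean log2 CPM of 6 to 8, 27.6% rose and 10.2% fell, and of those over 8, 47.6% and 13.2%. *Actb*, cytoplasmic beta-actin, rose from 423, 489.7 and 428 CPM to 539, 539 and 502 CPM (0.24 ± 0.055, SE, adjusted p = 0.00234 by edgeR), with all 40 min libraries above those of 20 min. *Hspa5*, the chaperone BiP, rose by 0.35, *Hsp90ab1* by 0.15, *Npm1*, a nucleolar protein, by 0.16 and *Ncl*, nucleolin, by 0.059, whereas *Eef1a1* did not pass the test (-0.05). *Prdx1*, *Eef1g*, *Rack1* and *Eif4a1* had values of -0.15, -0.13, -0.10 and -0.083 and were called lower. The edgeR calls of *Rack1* (any but 20 min replicate 3, adjusted p = 0.0547 to 0.189) and *Eif4a1* (any but 40 min replicate 3, adjusted p = 0.067 to 0.326) did not hold when that library was left out. With upper-quartile scaling 11 members of the list rose and 5 fell, and 10 and 7 against the total per ERCC read, and 2 or 3 fell with any 1 library left out. The edgeR call of *Ncl* (0.025, adjusted p = 0.241) was lost with upper-quartile scaling.

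Of 78 tested genes for cytosolic ribosomal proteins 4 rose, 13 fell and 61 did not pass the test, which is 5.13% higher and 16.7% lower beside 9.18% and 5.46% of all genes tested (median -0.033, and -0.068 with upper-quartile scaling). *Rps20* had 194, 209.7 and 201 CPM at 20 min and 159, 159 and 159 CPM at 40 min (log2 change -0.34 ± 0.036, SE, adjusted p = 6.4e-09 by edgeR). *Rpl37* had 348, 311 and 337 CPM at 20 min and 249.5, 287 and 278 CPM at 40 min (-0.29 ± 0.039, SE). *Rpl22l1*, a paralogue of *Rpl22*, had 70.2, 89.5 and 79.2 CPM at 20 min and 58.2, 52.4 and 52.7 CPM at 40 min (-0.55 ± 0.086, SE). The 40 min libraries lay below every 20 min library in the 3 genes. *Rpl6* went the other way, from 185, 199 and 177 CPM to 236, 235 and 239 CPM (0.34 ± 0.051, SE), as did *Rpl10l* and *Rpl26*. The most highly read member, *Rplp1*, was not called, with 443, 613 and 509.8 CPM at 20 min and 552, 542 and 464 CPM at 40 min, which overlap. *Rps23*, *Rpl14* and *Rpsa* did not pass the test (-0.17, 0.27 and 0.051), the next in level. *Rps23* passed it without 20 min replicate 1, 20 min replicate 2 or 40 min replicate 3 (-0.27 to -0.20, adjusted p = 0.0006 to 0.04999 by edgeR), and *Rps23* (-0.21, adjusted p = 0.0197) passed edgeR's test with upper-quartile scaling. Without 40 min replicate 1, 8 of the list were called lower, and the numbers higher and lower were 3 and 20 against the total per ERCC read. Many of these genes have processed pseudogenes with near-identical exons, so their counts are uncertain. Of 76 nuclear genes for oxidative phosphorylation 2 rose, 5 fell and 69 did not pass the test (median -0.05). The 6.58% that fell is near the 5.46% of all genes tested. Their numbers higher and lower were 1 and 11 against the total per ERCC read, where 5.52% and 8.95% of all genes were called, and 4 and 13 in a fit to the 6 libraries alone. *Cox6c*, a subunit of cytochrome c oxidase, had 278, 258 and 270.3 CPM at 20 min and 222, 239 and 242 CPM at 40 min (-0.20 ± 0.049, SE, adjusted p = 0.00399 by edgeR). *Atp5h*, *Ndufs4* and *Atp5b* did not pass the test (0.17, -0.0072 and 0.14). *Atp5b* passed it without 20 min replicate 2 (0.18, adjusted p = 0.0429 by edgeR). Without 20 min replicate 1, 3 of this list were called lower.

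Genes named Zfp with a number, mostly C2H2 zinc finger factors whose mRNAs are known as short-lived, were called higher more often than lower. Of 335 tested members 63 rose (18.8%), 3 fell (0.896%) and 269 did not pass the test, with a median of 0.094. Of all genes tested 9.18% rose and 5.46% fell, with a median of -0.0028. The list had a median log2 CPM of 4.34. Of all genes with a mean log2 CPM of 4 to 6, 10.97% rose and 6.92% fell, with a median of 0.031. When any 1 library was left out, between 45 and 54 members were called higher. *Zfp281*, a regulator of pluripotency genes, rose by 0.51 ± 0.063 (SE), from 42, 46.2 and 50.2 CPM to 69.5, 63 and 64.5 CPM, with no overlap between the groups. *Zfp57*, which protects imprinted methylation, rose by 0.091, *Zfp462* by 0.078 and *Zfp148* by 0.071, and *Zfp704* fell (-0.068). By edgeR, leaving out 1 library ended the calls of *Zfp57* (20 min replicate 1 or 40 min replicate 3, adjusted p = 0.0535 to 0.0627), *Zfp462* (20 min replicate 1 or 40 min replicate 1, adjusted p = 0.0704 to 0.0877), *Zfp148* (20 min replicate 2, 40 min replicate 1 or 40 min replicate 3, adjusted p = 0.0862 to 0.16) and *Zfp704* (20 min replicate 2 or 40 min replicate 3, adjusted p = 0.0501 to 0.115). The edgeR calls of *Zfp57* (0.057, adjusted p = 0.115), *Zfp462* (0.044, adjusted p = 0.209) and *Zfp148* (0.037, adjusted p = 0.308) were lost with upper-quartile scaling, and the numbers higher and lower were 47 and 6 with upper-quartile scaling and 43 and 8 against the total per ERCC read. Replication-dependent histone genes, which lack introns and a poly(A) tail, gave 1 call upwards, *Hist2h2ab*, among 62 (median -0.028). *Hist1h1c*, for histone H1.2, had 90.3, 121 and 92.3 CPM at 20 min and 103, 90.8 and 87.6 CPM at 40 min, which overlap, and *Hist1h4d*, *Hist1h1d* and *Hist2h2ac* did not pass the test (0.26, -0.023 and 0.15). Leaving out 1 library ended the edgeR call of *Hist2h2ab* (20 min replicate 2, 20 min replicate 3 or 40 min replicate 1, adjusted p = 0.0589 to 0.0869).

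Among 17 genes for SR proteins, their relatives and CLK kinases, known for introns that are kept back in the nucleus, 7 rose, 0 fell and 10 did not pass the test (median 0.079). That is 41.2% higher and 0% lower, at a median log2 CPM of 7.32. Of all genes tested 9.18% rose and 5.46% fell, and of those with a mean log2 CPM of 6 to 8, 27.6% and 10.2%. *Tra2a*, a splicing activator, had 472, 473 and 473 CPM at 20 min and 545, 563 and 550.3 CPM at 40 min (0.22 ± 0.024, SE, adjusted p = 1.1e-08 by edgeR). *Srsf10* had 249, 254 and 256 CPM at 20 min and 302, 302 and 289 CPM at 40 min (0.23 ± 0.034, SE). In both the 40 min libraries lay above every 20 min library, while *Tra2b* and *Srsf5* did not pass the test (-0.0088 and -0.057). *Srsf5* (-0.091, adjusted p = 0.042) passed edgeR's test with upper-quartile scaling, where 7 of the list rose and 2 fell. Among 29 genes for pause release and elongation factors 9 rose (31.0%), 1 fell (3.45%) and 19 did not pass the test (median 0.07). The 31.0%, at a median log2 CPM of 7.05, is near the 27.6% of all genes at 6 to 8. The numbers higher and lower were 6 and 3 with upper-quartile scaling and 6 and 3 against the total per ERCC read. The kinase gene *Cdk12* was at 0.17 and *Mepce*, the capping enzyme of 7SK RNA, at 0.36. *Aff1*, a scaffold of the super elongation complex, fell (-0.072). *Supt16*, a subunit of the histone chaperone FACT, rose by 0.10, and the edgeR call of *Supt16* (0.066, adjusted p = 0.0662) was lost with upper-quartile scaling. Of 24 pluripotency genes 7 rose, 0 fell and 17 did not pass the test (median 0.062), but the numbers higher and lower were 7 and 3 with upper-quartile scaling and 7 and 4 against the total per ERCC read. The 29.2% that rose, at a median log2 CPM of 6.26, is near the 27.6% of all genes at 6 to 8. *Nr5a2*, a nuclear receptor of naive mES cells, had 446, 462 and 451 CPM at 20 min and 568, 567 and 551 CPM at 40 min (0.31 ± 0.028, SE, adjusted p = 4.4e-10 by edgeR), and *Sall4*, *Fgf4* and *Utf1* rose by 0.35, 0.28 and 0.64. *Esrrb* and *Tfcp2l1*, the most highly read, did not pass the test (-0.046 and -0.0094), and *Esrrb* (-0.081, adjusted p = 0.00403) passed edgeR's test with upper-quartile scaling. The edgeR calls of *Aff1* (20 min replicate 2 or 40 min replicate 3, adjusted p = 0.0911 to 0.114), *Mepce* (40 min replicate 1, adjusted p = 0.0549) and *Utf1* (20 min replicate 1 or 40 min replicate 1, adjusted p = 0.0581 to 0.0814) did not hold when that library was left out.

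Host genes of snoRNAs with little or no protein product were called lower more often than higher. Of 14 tested (median -0.17), 1 was higher (7.14%) and 5 were lower (35.7%), beside 9.18% and 5.46% of all genes tested. With any 1 library left out between 2 and 4 were called lower, the fewest without 20 min replicate 3, 40 min replicate 2 or 40 min replicate 3, and with upper-quartile scaling 10. *Snhg1* had 74.8, 84 and 80.2 CPM at 20 min and 73.5, 66.4 and 66 CPM at 40 min (-0.22 ± 0.064, SE, adjusted p = 0.0181 by edgeR), *Snhg8*, *Snhg6*, *Snhg12* and *Zfas1* fell by 0.20 to 0.33 on the log2 scale, and *Gas5*, at 145, 140.1 and 133 CPM at 20 min and 132, 126 and 127 CPM at 40 min, missed the threshold (adjusted p = 0.0842 by edgeR). *Snhg17* and *Snhg5* did not pass the test (-0.12 and -0.14). *Gas5* (-0.16, adjusted p = 0.0244), *Snhg17* (-0.16, adjusted p = 0.0112) and *Snhg5* (-0.17, adjusted p = 0.0392) passed edgeR's test with upper-quartile scaling, and *Snhg17* passed the test without 40 min replicate 1 (-0.15, adjusted p = 0.049 by edgeR). By edgeR, leaving out 1 library ended the calls of *Snhg1* (any but 20 min replicate 1 or 40 min replicate 1, adjusted p = 0.0588 to 0.108), *Snhg8* (any but 20 min replicate 1 or 40 min replicate 1, adjusted p = 0.0528 to 0.108), *Snhg6* (40 min replicate 1, adjusted p = 0.0564) and *Snhg12* (any but 20 min replicate 2, adjusted p = 0.0553 to 0.128). The spliced products of such hosts are often known targets of nonsense-mediated decay. Of 17 long noncoding RNAs known to stay in the nucleus 3 rose (17.6%), 4 fell (23.5%) and 10 did not pass the test. Of all genes tested 9.18% rose and 5.46% fell. The list had a median log2 CPM of 7.46, and of all genes at 6 to 8, 27.6% rose and 10.2% fell. The median of the list, 0.034, turns to -0.00095 with upper-quartile scaling, and 6 fell with that scaling. *Kcnq1ot1*, the unspliced imprinted RNA that silences genes on chromosome 7, had 464, 483 and 460.2 CPM at 20 min and 638, 635 and 635 CPM at 40 min, the clearest gain (0.44 ± 0.024, SE, adjusted p = 8.8e-15 by edgeR). *Rian*, an imprinted RNA of chromosome 12 that hosts snoRNAs, had 215, 198 and 215 CPM at 20 min and 146, 149.5 and 148 CPM at 40 min, the clearest loss (-0.50 ± 0.034, SE, adjusted p = 8.5e-13 by edgeR). *Pvt1*, 340.1 kb long and next to *Myc*, had 793, 808 and 804 CPM at 20 min and 677, 684 and 694 CPM at 40 min (-0.23 ± 0.02, SE). *Malat1*, one of the most highly read genes, had 11291, 11064 and 11069 CPM at 20 min and 11194, 11223 and 11301 CPM at 40 min and did not pass the test (0.013 ± 0.013, SE). The 2 groups of *Malat1* overlap, those of the other 3 genes do not. *Lncenc1*, a lncRNA of naive mES cells, did not pass the test (0.034).

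Genes of the mitochondrial genome are transcribed by their own polymerase. Of the 15 tested 3 rose (20%), 1 fell (6.67%) and 11 did not pass the test (median 0.044, and 0.009 with upper-quartile scaling). Of all genes tested 9.18% rose and 5.46% fell, with a median of -0.0028. The list had a high median log2 CPM of 9.76. Of all genes with a mean log2 CPM over 8, 47.6% rose and 13.2% fell, with a median of 0.069. *mt-Rnr1*, the 12S rRNA, had 2056, 1896 and 2014 CPM at 20 min and 2493, 2491 and 2653 CPM at 40 min, with all 40 min libraries above those of 20 min (0.36 ± 0.027, SE, adjusted p = 1e-11 by edgeR). *mt-Rnr2*, the 16S rRNA, had 3619, 3235 and 3531 CPM at 20 min and 3808, 3821 and 4032 CPM at 40 min and missed the threshold (0.17 ± 0.059, SE, adjusted p = 0.0536 by edgeR). *mt-Nd5* and *mt-Nd6* rose by 0.10 and 0.12, *mt-Nd2* fell (-0.10), and *mt-Co1* did not pass the test (0.062). Leaving out 1 library ended the edgeR calls of *mt-Nd6* (any but 20 min replicate 2, adjusted p = 0.0584 to 0.156) and *mt-Nd2* (any but 20 min replicate 2, adjusted p = 0.0668 to 0.343). The edgeR calls of *mt-Nd5* (0.061, adjusted p = 0.0538) and *mt-Nd6* (0.089, adjusted p = 0.118) were lost with upper-quartile scaling. *mt-Rnr2* passed the test without 20 min replicate 1 (0.20, adjusted p = 0.0473 by edgeR). With upper-quartile scaling 1 member rose and 1 fell.

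**Figure D4:**
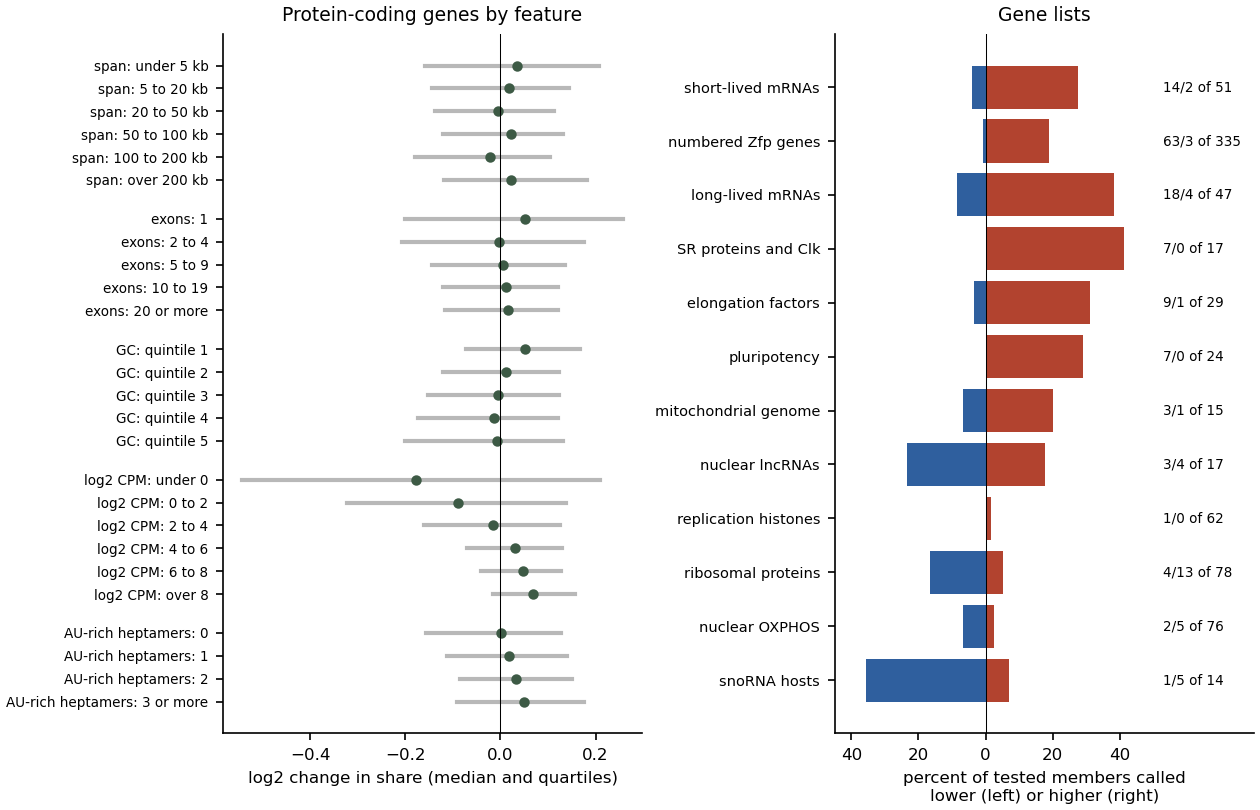
Left, median (points) and quartiles (bars) of the log2 change in share, *Tet2*-KO 40 against 20 min, for protein-coding genes by span, exon number, GC content, level and number of TATTTAT heptamers. Right, percent of the tested members of each list called higher (red, to the right) or lower (blue, to the left), with the counts higher/lower of tested; over all genes tested 9.18% were higher and 5.46% lower. Medians of span classes lie within 0.035 of 0, and snoRNA hosts and ribosomal protein genes have more members lower than higher.

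The same comparison in WT shows how far these changes were shared by cells with *Tet2*. In WT 3217 genes gained share from 20 to 40 min (16.2%) and 2453 lost it (12.3%). Of the 1827 genes that gained share in *Tet2*-KO, 1250 also gained it in WT (68.4% of the *Tet2*-KO and 38.9% of the WT list), and of the 1088 that lost it, 667 also lost it in WT (61.3% and 27.2%). No library is shared by the 2 comparisons. The changes correlated over 5841 genes with a mean log2 CPM above 5 (Pearson 0.63, across genes, which are not independent). The difference between the 2 changes was tested as an interaction. It was above 0 for 577 genes (2.9%) and below 0 for 689 (3.46%), so 6.36% of genes changed differently in the 2 genotypes (edgeR, adjusted p under 0.05).

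Of the 10 protein-coding genes with the largest loss, *Tnc* and *Inhba* had the lowest interaction. *Tnc* had 5.77, 5.46 and 5.76 CPM at 20 min and 8.22, 5.64 and 6.42 CPM at 40 min in WT, which overlap (0.26 ± 0.15, SE), and an interaction of -1.46 ± 0.21 (SE, adjusted p = 2.5e-05 by edgeR). *Inhba* had 2.58, 2.23 and 2.79 CPM at 20 min and 3.38, 4.13 and 3.51 CPM at 40 min in WT, with every 40 min library above every 20 min library (0.52 ± 0.17, SE), and an interaction of -1.29 ± 0.22 (SE, adjusted p = 0.00019 by edgeR). Further genes of the extracellular matrix and its turnover were looked at after this was seen, and each of the 4 named here was chosen for its values. *Col1a1*, the alpha 1 chain of collagen I, had 6.87, 8.94 and 6.27 CPM at 20 min and 3.57, 2.87 and 3.70 CPM at 40 min in *Tet2*-KO and 1.84, 1.66 and 1.67 CPM at 20 min and 2.75, 2.72 and 2.41 CPM at 40 min in WT, the opposite directions (interaction -1.73 ± 0.28, SE, adjusted p = 0.00015 by edgeR). *Thbs1*, thrombospondin 1, had 15.8, 16 and 16.4 CPM at 20 min and 12.2, 11 and 10.3 CPM at 40 min in *Tet2*-KO and 6.21, 6.39 and 5.63 CPM at 20 min and 8.84, 8.31 and 10.4 CPM at 40 min in WT (interaction -1.12 ± 0.19, SE). *Col12a1* and *Pappa* had interactions of -1.52 and -1.75. In *Tet2*-KO the means of these 6 genes at 10 min of EU lay below those at 20 min. They were 6.17 CPM for *Tnc*, 6.13 for *Inhba*, 3.16 for *Col1a1*, 7.97 for *Thbs1*, 4.41 for *Col12a1* and 3.49 for *Pappa*, beside 13.3, 11.5, 7.36, 16.1, 7.65 and 4.77 CPM at 20 min.

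Collagen genes also mark fibroblasts, such as the feeder cells on which mES lines are kept. Of 11 fibroblast markers 10 held reads in the 6 libraries and *S100a4* was at 0. The summed level, in CPM of gene reads without TMM, was 24.7 to 26.8 CPM at 10 min, 32.1 to 35.6 CPM at 20 min and 21 to 23.4 CPM at 40 min in *Tet2*-KO, and 51.3 to 58.4, 30.4 to 32.9 and 24.7 to 26.4 CPM in WT. In *Tet2*-KO the sum thus lay lower at 10 and at 40 min than at 20 min, as did *Tnc*, *Inhba* and *Col1a1*. *Col1a1* is itself part of this sum. *Tnc* and *Inhba* were picked for their loss between the same 20 and 40 min libraries, so the likeness is partly built in. The highest of them was *Col5a1*, with 20.5, 22.8 and 21.4 CPM at 20 min and 18, 16 and 16.9 CPM at 40 min, which fell by 0.35 in *Tet2*-KO and by 0.35 in WT on the log2 scale. Of 5 tested markers, *Col1a1* among them, 2 fell and 0 rose, and *Col1a2*, *Col3a1* and *Postn* did not pass the test (-0.72, -0.63 and -0.87), on few reads. *Col1a2* passed it without 40 min replicate 3 (-1.003, adjusted p = 0.0481 by edgeR). In WT the 5 had a median of 0.48, with *Col1a1* called higher and *Col5a1* lower, and the median interaction was -1.21, and the markers other than *Col5a1* lay above 0 in WT and below 0 in *Tet2*-KO. The part of such cells in the loss of *Tnc*, *Inhba* and *Col1a1* was not tested. Markers of primitive endoderm and of trophectoderm, 6 tested of each, gave no call (edgeR, adjusted p under 0.05). The most highly read were *Dab2*, *Hnf4a*, *Gata4* and *Pdgfra* (-0.077, 0.042, -0.25 and -0.18) and *Tfap2c*, *Gata3*, *Eomes* and *Krt8* (0.17, -0.075, 0.18 and -0.24), and the lists had summed levels of 21.1 to 25.3 and 28.5 to 33.9 CPM at 20 min and 21.3 to 22.4 and 29.3 to 32.6 CPM at 40 min. In bulk RNA, fewer cells of a type and less RNA per cell cannot be told apart.

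Of the genes that gained most in *Tet2*-KO, *Gabrg3*, *Tmtc2* and *Gad1* did not pass the test in WT (0.004, 0.13 and -0.052) and had interactions of 0.71 ± 0.14, 0.55 ± 0.12 and 0.72 ± 0.21 (SE, adjusted p of 0.00096, 0.00349 and 0.0306 by edgeR). *Gabrg3* had 14.7, 16.9 and 15.4 CPM at 20 min and 16, 14.3 and 16.9 CPM at 40 min in WT, which overlap. Among noncoding genes *Gm2379* rose in *Tet2*-KO, at 8.61, 8.74 and 10.5 CPM at 20 min and 14.9, 14.3 and 15.7 CPM at 40 min, and fell in WT, at 14.6, 13.8 and 14 CPM at 20 min and 9.51, 10.1 and 10.5 CPM at 40 min (interaction 1.18 ± 0.15, SE, adjusted p = 4.5e-06 by edgeR). *Gm11427*, a transcribed pseudogene, rose by 0.56 in *Tet2*-KO beside -0.023 in WT. *Fgf18*, a fibroblast growth factor gene picked for this contrast after its values were seen, had 7.77, 8.01 and 7.82 CPM at 20 min and 11.8, 10.9 and 11.8 CPM at 40 min in *Tet2*-KO and 11.5, 10.9 and 10.4 CPM at 20 min and 8.53, 6.80 and 7.57 CPM at 40 min in WT (interaction 1.07 ± 0.17, SE, adjusted p = 0.00011 by edgeR). *Snrpn*, *March11* and *Cyp2b23* rose in both genotypes, with interactions that missed the threshold (0.57 ± 0.19, 0.11 ± 0.20 and 0.39 ± 0.17, SE).

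**Figure D5:**
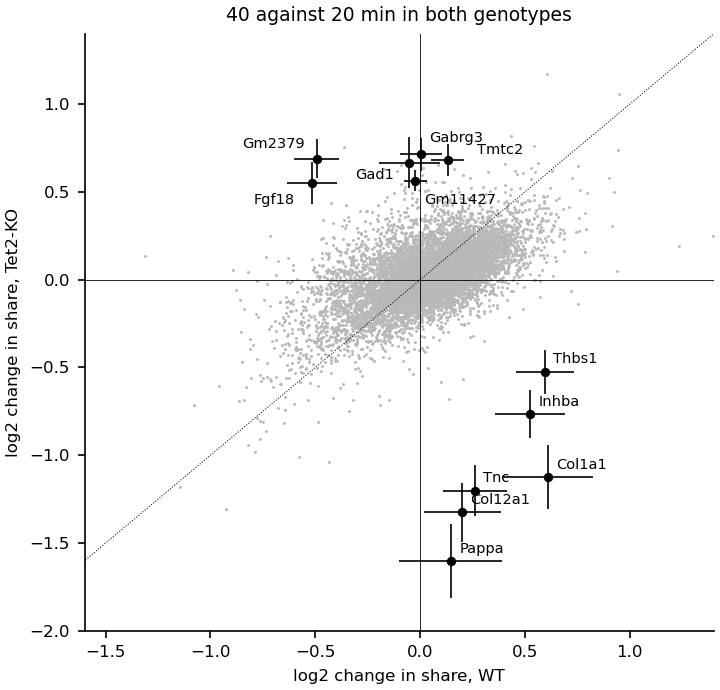
Log2 change in share of gene reads from 20 to 40 min in WT (horizontal) and *Tet2*-KO (vertical); grey points are genes with a mean log2 CPM above 3, black points are named genes whose interaction passed the test, with the SE of each change, and the dotted line marks equal change. *Tnc*, *Inhba*, *Col1a1*, *Thbs1*, *Col12a1* and *Pappa* lie below 0 in *Tet2*-KO and above 0 in WT, and *Gm2379* and *Fgf18* lie the other way round.

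Of 51 short-lived genes 14 rose and 2 fell in *Tet2*-KO and 26 rose and 2 fell in WT, with medians of 0.19 and 0.26. Of all genes tested 16.2% rose and 12.3% fell in WT. Ribosomal protein genes had a median of -0.033 in *Tet2*-KO and 0.11 in WT, where 30 rose and 5 fell. Their median log2 CPM was 6.78. All genes with a mean log2 CPM of 6 to 8 had medians of 0.047 in *Tet2*-KO and 0.096 in WT. The interaction was below 0 for 19 of the 78 ribosomal protein genes and above 0 for 0, beside 3.46% and 2.9% of all genes tested. The shares for the interaction were not taken by level. *Rplp1* had 375, 393 and 321 CPM at 20 min and 489, 511 and 618 CPM at 40 min in WT, with an interaction of -0.58 ± 0.14 (SE, adjusted p = 0.00709 by edgeR). For long-lived genes the interaction was below 0 for 12 and above 0 for 1 of 47, and for short-lived genes for 6 and 0 of 51, namely *Mcl1*, *Plk2*, *Klf4*, *Nanog*, *Cdkn1a* and *Mdm2*. *Plk2*, a polo-like kinase gene, rose by 0.29 in *Tet2*-KO and by 0.79 in WT (interaction -0.50 ± 0.10, SE, adjusted p = 0.00178 by edgeR). *Fgf4* rose by 0.28 and 0.76 (interaction -0.48 ± 0.057, SE). Of 14 snoRNA hosts 0 passed this test. *Pvt1* and *Firre*, long noncoding RNAs, fell in *Tet2*-KO by 0.23 and 0.18, beside -0.058 and 0.062 in WT (interactions -0.17 ± 0.028 and -0.24 ± 0.04, SE).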

How the data were processed

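Nascent RNA of mES cells was captured after EU labelling, depleted of rRNA and sequenced, and the authors deposited a table of HTSeq read counts per gene and ERCC transcript for each of 18 libraries, not normalized. Per the labels and the study's methods, reads were trimmed with Trimmomatic 0.39, aligned to mm10 with HISAT2 2.2.1 and counted with HTSeq 0.12.4 on GENCODE M19. The counting mode and strand setting are not given in the sources used here. Reads outside genes, ambiguous reads and reads not aligned uniquely (14.37% to 15.82%, 2.397% to 2.458% and 5.664% to 5.993% of the reads in the tables of the 6 libraries) were left out of library sizes and tests.

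Counts of the 19910 of 54446 genes kept by filterByExpr (minimum count 10) were fitted in edgeR 4.0.16 (R 4.3.3) over 6 groups of genotype and labelling time in all 18 libraries, which share 1 estimate of the spread, and tested by quasi-likelihood, with p-values adjusted after Benjamini-Hochberg and a threshold of 0.05. Library sizes were TMM-scaled gene totals for the share of gene reads, ERCC totals for the level per ERCC read, and plain gene totals for the rise against the total. The change in *Tet2*-KO minus that in WT was tested as an interaction. Each SE was taken as the size of the log2 change over the root of its F value. On simulated counts of 19910 genes for the contrast of 40 against 20 min, the TMM fit recovered 44 of 50 genes raised by a fold of 2 and 43 of 50 at a fold of 0.5, and called 9 unchanged genes. These counts were drawn from the fitted model, and the changed genes were picked among those with more reads. Smaller folds were not simulated, so the recovery does not describe small changes or genes with few reads. Every pair of replicates differed by more than counting noise (mean chi-square per gene 1.66 to 2.85). Totals and biotype shares were compared by exact permutation tests. Spans, exons and 3′ UTRs came from GENCODE M21, which holds 54409 of the 54446 gene IDs. miRNA sequences came from RefSeq.

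Genes were named by rule: the 10 protein-coding and 5 other genes with the largest change each way among called genes whose groups did not overlap and whose mean log2 CPM exceeded 3, the 5 at each end per ERCC read with a mean log2 CPM above 5, the 4 tested members of each list with the most reads, and *Tet2*. Some genes that the rule names are not reported here. Further names, such as the called members of lists, were chosen after their values were seen. The libraries, lists and tests were chosen with earlier results of these data known. Alternatives were DESeq2 1.42.0, other filters and scalings, a fit to the 6 libraries alone, a replicate block and leaving out each library. The leave-one-out values of biotype shares and of the lists' counts were added after seeing the data.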

Additional observations from a re-analysis of the deposited data

Results flagged for a closer look

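The change in share from 20 to 40 min differed between *Tet2*-KO and WT for 37 of the 164 genes named in the report and tested. The test was edgeR's for the interaction, with an adjusted p under 0.05, which 6.36% of all genes tested passed. Many named genes were chosen for their change or their level, so these shares are not a like comparison. Values are log2 changes in *Tet2*-KO minus those in WT. Of genes of the extracellular matrix and of secreted signals they were -1.75 for *Pappa*, -1.73 for *Col1a1*, -1.52 for *Col12a1*, -1.46 for *Tnc*, -1.29 for *Inhba* and -1.12 for *Thbs1*, and these genes lay above 0 in WT and below 0 in *Tet2*-KO. Above 0 were 1.18 for *Gm2379*, 1.07 for *Fgf18*, 0.72 for *Gad1*, 0.71 for *Gabrg3*, 0.59 for *Gm11427* and 0.55 for *Tmtc2*. Ribosomal protein genes had -0.58 for *Rplp1*, -0.32 for *Rps23*, -0.19 for *Rps20* and -0.19 for *Rpl37*, short-lived genes -0.50 for *Plk2*, -0.30 for *Mdm2*, -0.24 for *Cdkn1a*, -0.23 for *Mcl1*, -0.20 for *Klf4* and -0.17 for *Nanog*, and long-lived genes -0.33 for *Rack1*, -0.26 for *Actb*, -0.13 for *Eif4a1* and -0.12 for *Hsp90ab1*. The others were -0.48 for *Fgf4*, -0.36 for *Srsf5*, -0.32 for *Klhl41*, -0.29 for *Cox6c*, -0.24 for *Firre*, -0.18 for *mt-Co1*, -0.17 for *Pvt1*, -0.13 for *Zfp57*, 0.12 for *Lncenc1*, 0.15 for *Tns1* and 0.27 for *mt-Nd6*. The genes of the first 2 groups were partly picked for this contrast after their values were seen, and the cause of the differences was not tested. Groups of 3 libraries are too small to test single libraries as outliers.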

How the results depend on the processing

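The counts of genes that gained or lost share stayed within 1.5 times under other filters, DESeq2 and other scalings, except that a fit to the 6 libraries alone called 1837 genes lower. The genes lower per ERCC read were 7 with at least 10 reads in every library, 7 by DESeq2, 17 in the 6 libraries alone, 5 without 20 min replicate 1 and 18 without 20 min replicate 2. With 1 library left out, 1328 to 1590 genes gained and 764 to 969 lost share, 14187 to 14892 were higher per ERCC read, 830 to 913 rose more and 1212 to 1521 less than the total, and 418 to 473 and 474 to 638 differed between the genotypes. Named genes that did not pass the test turned direction. *Malat1* was at -0.0051 with at least 10 reads in every library, -0.022 with upper-quartile scaling and -0.0031 with TMM on protein-coding genes, and *Lncenc1* at -0.00095 with upper-quartile scaling. With 1 library left out the log2 change ran from -0.11 to 0.13 for *Rplp1*, -0.044 to 0.044 for *Tra2b*, -0.13 to 0.17 for *Terc*, -0.18 to 0.044 for *Gata3*, -0.047 to 0.18 for *Hnf4a*, -0.16 to 0.014 for *Dab2*, -0.047 to 0.013 for *Ndufs4*, -0.19 to 0.037 for *Hist1h1c* and -0.066 to 0.032 for *Hist1h1d*. Its direction turned without 20 min replicate 1 for *Tra2b* and *Terc*, without 20 min replicate 2 for *Rplp1*, *Gata3*, *Hnf4a*, *Ndufs4*, *Hist1h1c* and *Hist1h1d*, without 20 min replicate 3 for *Hnf4a*, without 40 min replicate 1 for *Terc*, without 40 min replicate 2 for *Hnf4a* and *Ndufs4* and without 40 min replicate 3 for *Rplp1*, *Ndufs4* and *Dab2*. The cause was not tested. No called gene named in the report turned direction under these alternatives.

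The replicate numbers did not pair the libraries. The deviations of libraries with the same number correlated at -0.021, -0.016 and -0.012 across genes. With the number as a replicate block 1820 genes gained and 1078 lost share, 15189 were higher and 10 lower per ERCC read, 1111 rose more and 1779 less than the total, *mt-Rnr2* passed the test (0.17) and *Rplp1* was at 0.0031.

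Levels per ERCC read rest on the ERCC reads of each library and vary more than shares, with a biological coefficient of variation of 0.0945 against 0.05. Genes with few reads, among them most small RNAs, allow only large changes to be seen.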
